A study of Mus musculus with 13 samples.

Results

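The retina of mice without PGC-1α was compared between light exposure and darkness. The comparison set 3 arrays of light-exposed PGC-1α KO mice (KO light) against 3 arrays of dark-adapted KO mice (KO dark). Each array held RNA of both retinae of 1 mouse, read on an Affymetrix Mouse Gene 1.0 ST chip, and the whole series has 13 such arrays. The KO mice were global PGC-1α knockouts on C57 BL/6, so that the coactivator was missing in every tissue and throughout life, and the WT mice were C57 BL/6 NRj. By the methods the mice were 6 to 13 weeks old, were kept in the dark for 16 h, and had their pupils dilated before 2 h of white light at 15000 lux, whereas the dark mice received no light. The methods add a night of recovery in darkness, while the series' design text speaks of eyes taken after exposure, so the time between light and sampling is not settled for the arrays. WT mice gave 4 dark arrays (WT dark) and 3 light arrays (WT light). By the labels the KO dark mice and WT dark 1 to 3 were female, and the light-exposed mice and WT dark 4 were male, so light and sex cannot be told apart here. Xist and 3 Y-linked genes matched the labelled sex in all 13 arrays. The methods, in contrast, name male mice.

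Strong light bleaches visual pigment and can injure photoreceptors. Injured photoreceptors signal to Müller glia, which span the retina and answer through cytokines of the LIF family, their shared receptor gp130 and the transcription factor STAT3, a response known to protect photoreceptors. PGC-1α is a coactivator that raises genes of mitochondria and oxidative metabolism, and photoreceptors are among the most energy-demanding cells of the body.

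The arrays labelled WT dark 4 and KO light 3 stood apart from their groups. Over the 19104 autosomal genes analysed, which are not independent of each other, the array labelled WT dark 4 had a mean correlation of 0.9974 with KO light 1 and 2, 0.9907 with KO dark and 0.9899 with WT dark 1 to 3. The array labelled KO light 3 had 0.992 with KO light 1 and 2, 0.9966 with KO dark and 0.9976 with WT dark 1 to 3. The KO light response is therefore given in both ways: as labelled, and with the exchange, in which the array labelled WT dark 4 joins KO light 1 and 2 while that labelled KO light 3 is left out. The exchange was chosen from the same intensities that are compared here, so a count after it describes these arrays and is not independent evidence that they were mislabelled. Choosing an array for its likeness to KO light 1 and 2 can by itself narrow the spread within KO light. Each SE and adjusted p after the exchange may therefore be too small, and is given as a description too. Both arrays are male by label and by their sex-linked genes, so the exchange leaves the sex of the groups as it was. Ppargc1a, which encodes PGC-1α, stood at log2 intensities of 10.40, 10.19 and 10.26 in KO dark and 10.03, 10.01 and 10.02 in WT dark 1 to 3, so the knockout is not seen in this signal. The sources used here give neither the deleted part of Ppargc1a nor the place of its probes, and the signal cannot serve as a check of genotype. Defining rod and Müller genes were bright in all arrays, with Gnat1, the rod transducin subunit, at 13.62 to 13.80, Sag, rod arrestin, at 12.52 to 12.73, and Rlbp1, the retinaldehyde-binding protein of Müller glia, at 10.19 to 10.69.

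As labelled, 9 genes rose and 2 fell between KO dark and KO light, which is 0.0471% and 0.0105% of the genes tested (limma, with an adjusted p under 0.05, and a linear ratio from 1.2 upward or from 0.87 downward). At an unadjusted p under 0.05 the counts were 567 and 470, and without moderated variances they were 1 and 2. After the exchange, 1357 genes rose and 1194 fell, which is 7.1% and 6.25%. With quantile normalization between arrays the same comparison gave 1070 and 1487, so the share of calls that were rises went from 53.2% to 41.8%. All 9 rises and both falls called as labelled were also called after the exchange. Of the genes that rose after the exchange 110 did so at least 2-fold, as against 5 of those that fell. Genes whose 3 KO light values all lay above, or all below, the KO dark values made up 6.51% and 6.54% of genes as labelled and 20.3% and 17.9% after the exchange.

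The position of each array among the called genes is a description, since the calls after the exchange rest on KO light 1 and 2 and the array labelled WT dark 4 being far from KO dark, and the array labelled KO light 3 had no part in them. Over the 1357 genes that rose after the exchange its median log2 difference from KO dark was 0.01, against 0.38 and 0.35 in KO light 1 and 2 and 0.48 in the array labelled WT dark 4. Over the 1194 genes that fell the corresponding medians were -0.01, -0.31, -0.24 and -0.33. When KO light 3 was left out and nothing was put in its place, 1103 genes rose and 796 fell. Leaving out KO light 2 gave 7 calls, and leaving out KO light 1 or any single KO dark array gave 0. An exact permutation test of 3 against 3 arrays cannot go below p = 0.1, so the calls rest on the spread that limma pools over genes and groups. The median SD of a gene was 0.0574 in KO dark, 0.0924 in KO light as labelled and 0.0643 in KO light after the exchange. RNA was taken from whole retina, and fewer cells of a type and less RNA per cell cannot be told apart in any of the falls below.

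**Figure D1:**
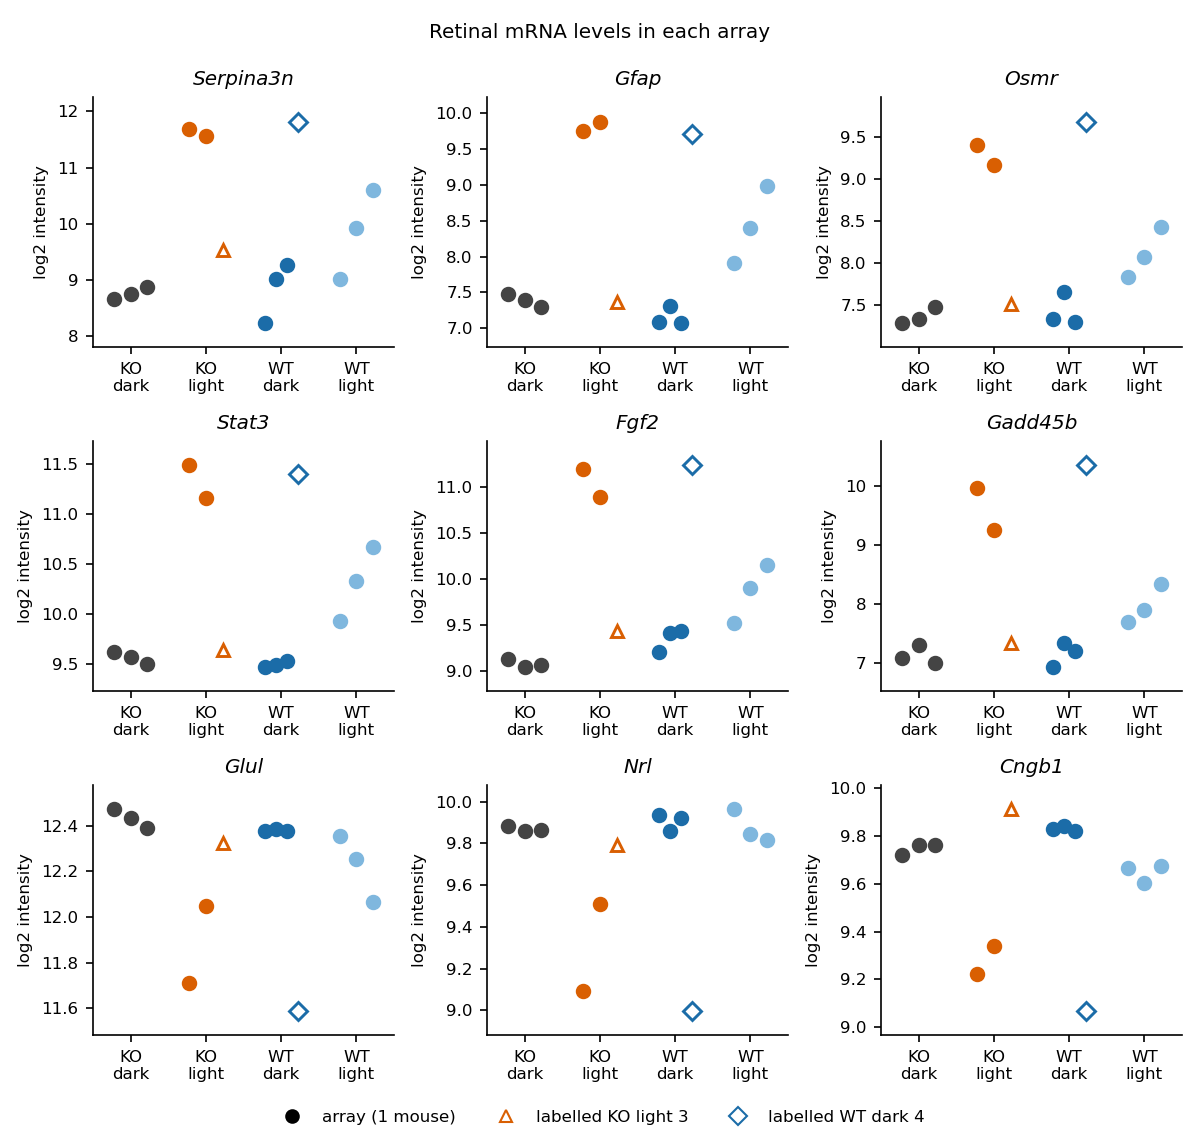
Log2 intensity (vertical axis) of 9 genes in each of the 13 arrays, by labelled group (horizontal axis), where each symbol is 1 mouse. For the 6 rising genes the open diamond (labelled WT dark 4) lies with KO light 1 and 2 and the open triangle (labelled KO light 3) lies near the dark arrays, as with Gfap at 9.71 and 7.37, and for Glul, Nrl and Cngb1 the same arrays are exchanged in the other direction.

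Of the 11 genes called as labelled, Htr3a, a subunit of the ionotropic serotonin receptor, had log2 intensities of 6.51, 6.60 and 6.51 in KO dark and 7.70, 7.58 and 7.12 in KO light as labelled. Its log2 difference was 0.93 (SE 0.12, limma adjusted p = 0.0371), and with the array labelled WT dark 4 (7.91) it was 1.19 (SE 0.08, adjusted p = 5.89e-06). Pcolce, which helps to trim the ends of procollagen, rose by 0.82 as labelled and 1.03 after the exchange. Anxa3, an annexin that binds membranes, rose by 0.46 and 0.40, and Synm, an intermediate filament protein of glia and muscle, by 0.45 and 0.39. Asns makes asparagine and responds to amino acid and endoplasmic reticulum stress, and its differences were 0.42 and 0.51. Idh3a, the catalytic subunit of the citrate cycle's isocitrate dehydrogenase, rose from 9.51, 9.49 and 9.47 to 9.78, 9.85 and 9.87 as labelled, a difference of 0.34 under both assignments. Rbfa, a mitochondrial ribosome factor, rose by 0.41 and 0.37, and Rbis by 0.33 and 0.39. The RIKEN clone C330024D21Rik rose by 1.19 and 1.51. Asic3, an acid-sensing ion channel, fell by 0.33 on the log2 scale as labelled and by 0.32 after the exchange, and the microRNA host transcript Mir670hg fell by 0.39 and 0.38. For 11 of these 11 genes the mean of WT dark 1 to 3 lay on the same side of KO dark as KO light did. Synm, for example, stood at 8.26, 8.21 and 8.40 in WT dark, 7.70, 7.76 and 7.73 in KO dark and 8.32 in the array labelled KO light 3. A light response and a resemblance to WT dark cannot be told apart for these genes as labelled. The array labelled KO light 3 resembled WT dark 1 to 3, which by itself favors such genes among calls that include it. Among the calls after the exchange, WT dark 1 to 3 lay on the same side for 721 of 1357 rises and 771 of 1194 falls.

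LIF is released by Müller glia after photoreceptor injury and acts through its own receptor and gp130, encoded by Il6st. JAK kinases then activate STAT3, SOCS3 closes the loop, and endothelin 2 from photoreceptors and FGF2 belong to the same protective circuit. Of 28 measured genes of this pathway 12 rose (42.9%), 1 fell (3.57%) and 15 were not called after the exchange. Over all genes tested 7.1% rose and 6.25% fell, which are the shares to set beside the list counts below. The median log2 difference of the pathway was 0.19, against -0.01 over all genes tested. As labelled 0 of the 28 were called, with a median of 0.10. Among the ligands Lif stood at 5.85, 5.80 and 6.02 in KO dark, 6.60 and 6.27 in KO light 1 and 2, 5.98 in the array labelled KO light 3 and 6.99 in that labelled WT dark 4. It rose by 0.73 after the exchange (SE 0.14, adjusted p = 0.00234), against 0.39 as labelled (adjusted p = 0.224). Clcf1, another ligand of the family, rose by 0.32 after the exchange, whereas Il6, Il11, Osm and Ctf1 had differences of -0.07, -0.13, -0.03 and -0.01 and were not called. As labelled, Clcf1, Il6, Il11, Osm and Ctf1 had 0.13, -0.04, -0.10, -0.01 and -0.09, and none was called. Edn2, endothelin 2, stood at 6.68, 6.83 and 6.69 in KO dark and at 8.65, 8.13 and 8.78 after the exchange. That was a rise of 1.79 (SE 0.20, adjusted p = 7.66e-05), and as labelled, with 7.25 in KO light 3, the difference was 1.28 (adjusted p = 0.129). Its receptor Ednrb rose by 1.56 after the exchange, and had 0.84 as labelled.

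Among the receptors Osmr, the oncostatin M receptor that pairs with gp130, stood at 7.29, 7.34 and 7.48 in KO dark, 9.41 and 9.17 in KO light 1 and 2, and 9.69 in the array labelled WT dark 4. The array labelled KO light 3 had 7.52, at the level of KO dark. Osmr rose by 2.05 after the exchange (SE 0.15, adjusted p = 5.93e-06), and its difference was 1.33 as labelled (adjusted p = 0.177). Il6st rose by 1.14 after the exchange, while Lifr, the LIF receptor chain, had 0.05 and was not called. Cntfr, the binding chain for ciliary neurotrophic factor, was the 1 gene that fell, by 0.25 on the log2 scale, and 0 to 1 genes of the pathway fell with 1 array left out. As labelled, Il6st, Lifr and Cntfr had 0.72, 0.02 and -0.19, and none was called. Downstream, Stat3 stood at 9.63, 9.57 and 9.51 in KO dark and 11.48, 11.16 and 11.40 after the exchange, with 9.65 in the array labelled KO light 3. Stat3 rose by 1.78 (SE 0.14, adjusted p = 6.44e-06) after the exchange, against 1.196 as labelled (adjusted p = 0.189), whereas Jak1 and Jak2 had -0.05 and 0.10 and were not called. The STAT3 targets Socs3, Bcl3 and Cebpd rose by 0.78, 1.57 and 1.47, and Socs2 by 0.58. As labelled, Jak1, Jak2, Socs3, Bcl3, Cebpd and Socs2 had -0.03, 0.04, 0.44, 0.95, 0.87 and 0.32, and none was called. Fgf2, a survival factor for photoreceptors, rose from 9.13, 9.04 and 9.07 to 11.19, 10.89 and 11.23 after the exchange. This was a log2 difference of 2.02 (SE 0.13, adjusted p = 4.69e-06), and 1.43 as labelled (adjusted p = 0.134).

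Socs3 and the ferric reductase gene Steap4, both called higher after the exchange, carry the letters TTCNNNGAA, the core of a STAT site, in the 250 bases before their start. Of the promoters of genes that rose after the exchange 9.18% held these letters, of genes that fell 9.07%, and of all genes tested 7.76%. The share with TGANTCA, the core of an AP-1 site, was 5.94%, 6.86% and 7.1%. Among LIF pathway genes with a promoter, TTCNNNGAA stood in 1 of 9 that rose and 0 of 14 not called. Among acute-phase and reactive glia genes with a promoter it stood in 2 of 15 that rose and 2 of 6 not called. Both motifs were searched on both strands. The upstream bases of both genes are shown as examples of genes that moved together, from RefSeq with build GRCm38.p6, read along the gene's strand, with the matched letters in capitals. Socs3 is on the minus strand (chr11:117969367-117969616) and Steap4 on the plus strand (chr5:7960222-7960471).
Socs3: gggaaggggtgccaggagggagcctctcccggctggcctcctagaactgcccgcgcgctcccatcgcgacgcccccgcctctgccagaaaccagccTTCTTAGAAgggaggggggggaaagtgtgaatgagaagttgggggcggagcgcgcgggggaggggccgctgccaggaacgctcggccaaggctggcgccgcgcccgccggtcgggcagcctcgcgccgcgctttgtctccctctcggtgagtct
Steap4: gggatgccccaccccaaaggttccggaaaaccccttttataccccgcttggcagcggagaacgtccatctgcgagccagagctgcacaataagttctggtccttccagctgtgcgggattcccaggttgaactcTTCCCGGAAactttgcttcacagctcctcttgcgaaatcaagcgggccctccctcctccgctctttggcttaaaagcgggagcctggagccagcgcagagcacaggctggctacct
The match begins 154 bases before the start of Socs3 and 116 bases before that of Steap4. It is a match of letters and was not set against any binding data.

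The acute-phase proteins and filaments that mark reactive Müller glia and astrocytes showed the largest differences. Of 24 measured genes 16 rose (66.7%, against 7.1% of all genes) and 0 fell after the exchange. The median log2 difference was 0.95 (0.57 as labelled, with 0 of 24 called). The mean log2 level of the 24 genes was 7.44 to 7.50 in KO dark, 8.45 and 8.34 in KO light 1 and 2, 7.58 in the array labelled KO light 3 and 8.71 in that labelled WT dark 4. Serpina3n, an acute-phase protease inhibitor, stood at 8.67, 8.75 and 8.88 in KO dark, 11.69 and 11.57 in KO light 1 and 2, 9.53 in the array labelled KO light 3 and 11.82 in that labelled WT dark 4. It had the largest rise of any gene named here, 7.59-fold after the exchange (log2 difference 2.92, SE 0.32, adjusted p = 5.23e-05), and 2.16 as labelled (adjusted p = 0.139). Gfap, the filament protein that Müller glia switch on when they react, rose from 7.47, 7.39 and 7.30 to 9.75, 9.88 and 9.71. Its log2 difference was 2.39 after the exchange (SE 0.19, adjusted p = 6.76e-06), and 1.61 as labelled (SE 0.50, adjusted p = 0.207), where KO light 3 had 7.37. A2m, the protease inhibitor alpha-2-macroglobulin, rose by 2.47 after the exchange, Lcn2, which binds bacterial iron carriers, by 2.20, and Cd44, a receptor for hyaluronan, by 1.95. As labelled these differences were 1.55, 1.45 and 1.19. Vim, a filament protein that Müller glia hold at rest, rose by 0.91, and Nes, a filament of progenitors and reactive glia, by 0.94. Cp and Steap4, which handle iron and copper, rose by 1.24 and 1.39. Chil1, a chitinase-like protein of reactive glia, and Lad1, an anchoring filament protein, rose by 2.27 and 2.28. As labelled, Vim, Nes, Cp, Steap4, Chil1 and Lad1 had 0.58, 0.56, 0.74, 0.82, 1.55 and 1.56, and none was called.

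**Figure D2:**
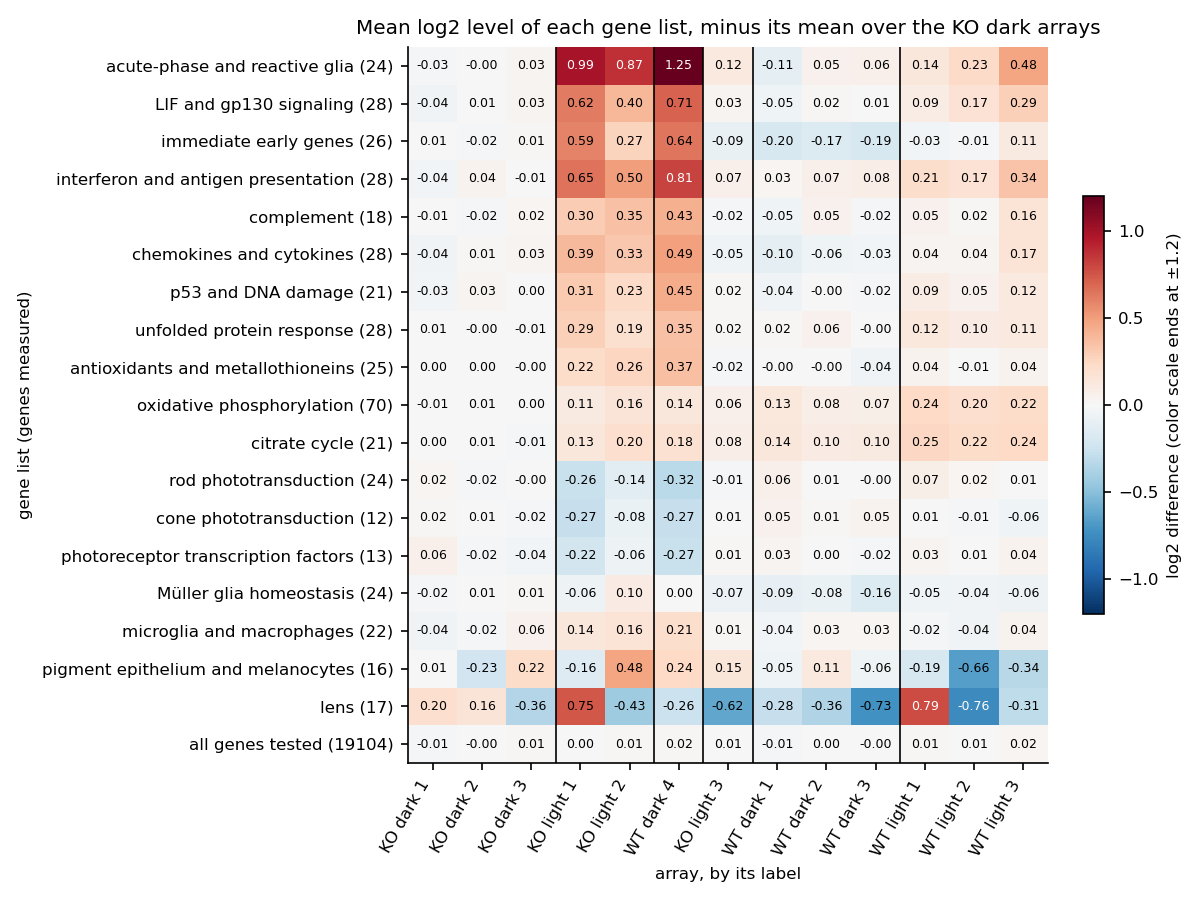
Mean log2 level of each gene list (rows, with the number of genes measured) in each array (columns, by label), minus its mean over the 3 KO dark arrays. The array labelled WT dark 4 shares the pattern of KO light 1 and 2, with 1.25 over acute-phase and reactive glia genes against 0.12 in the array labelled KO light 3, and the lens list varies among arrays of every group.

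Immediate early genes encode transcription factors that cells make within minutes of a stimulus, among them the FOS and JUN proteins that form AP-1. Of 26 measured, 15 rose (57.7%, against 7.1% of all genes) and 0 fell after the exchange. The median log2 difference was 0.47 (0.22 and 0 of 26 as labelled). Atf3, induced by many stresses, stood at 7.25, 7.24 and 7.31 in KO dark, 9.39 and 8.61 in KO light 1 and 2, 7.42 in the array labelled KO light 3 and 9.70 in that labelled WT dark 4, a rise of 1.97 after the exchange (SE 0.20, adjusted p = 3.2e-05) and 1.21 as labelled (adjusted p = 0.178). Jun, Junb, Fosb and Fos rose by 1.06, 1.14, 1.00 and 0.95, Myc by 0.89, and Nr4a1, a nuclear receptor without a known hormone, by 1.18. Zfp36, which speeds the decay of cytokine mRNA, rose by 0.67. As labelled, Jun, Junb, Fosb, Fos, Myc, Nr4a1 and Zfp36 had 0.62, 0.62, 0.57, 0.48, 0.45, 0.60 and 0.36, and none was called. Egr1 did not follow them. It stood at 8.67, 8.49 and 8.83 in KO dark, 9.56 and 8.36 in KO light 1 and 2, and 9.61 in the array labelled WT dark 4. The difference of Egr1 was 0.51 (SE 0.27, adjusted p = 0.194) and it was not called, with KO light 2 below the range of KO dark and KO light 1 above it. As labelled its difference was -0.09. In WT dark 1 to 3 Egr1 stood at 7.19, 7.23 and 6.96, and the array labelled KO light 3 had 7.80.

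Inflammatory genes rose in several families. Of 28 chemokines and cytokines 11 rose (39.3%, against 7.1% of all genes) and 0 fell after the exchange. Their median was 0.17 (0.12 as labelled, 0 of 28 called). Ccl3, a chemokine of microglia, stood at 5.64, 5.63 and 5.78 in KO dark, 8.61 and 7.63 in KO light 1 and 2, 6.04 in the array labelled KO light 3 and 8.92 in that labelled WT dark 4. Ccl3 rose by 2.70 after the exchange (SE 0.25, adjusted p = 1.79e-05), and its difference was 1.74 as labelled (adjusted p = 0.157). Cxcl10, an interferon-induced attractant of T cells, rose by 1.74, Cxcl13, an attractant of B cells, by 1.66 and Ccl2, an attractant of monocytes, by 1.04. Il33, an alarmin held in the nuclei of Müller glia, rose by 0.83. The classical cytokines Il1b, Tnf and Il6 had differences of -0.04, 0.18 and -0.07 after the exchange and were not called, at low log2 levels of 3.58 to 6.31 in every array. As labelled, Cxcl10, Cxcl13, Ccl2, Il33, Il1b, Tnf and Il6 had 1.14, 0.83, 0.44, 0.41, -0.10, 0.26 and -0.04, and none was called.

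Interferon-stimulated and antigen-presentation genes had the highest share of rises among the lists. After the exchange 20 of 28 were called higher (71.4%, against 7.1% of all genes) and 0 lower. Their median was 0.52, and 0.29 as labelled with 0 of 28 called. Ifit1, which binds foreign RNA, rose from 6.56, 6.62 and 6.49 to 8.63, 8.42 and 8.68 (log2 difference 2.01, SE 0.14, adjusted p = 5.89e-06), while the array labelled KO light 3 had 6.54. As labelled its difference was 1.30 (adjusted p = 0.204). The factors that carry the interferon signal, Irf9 and Stat2, rose by 1.69 and 1.23, Oasl2 by 1.57, and B2m, the light chain of class I MHC, by 1.13. Of 18 complement genes 8 rose (44.4%) and 0 fell, with a median of 0.23 (0.12 as labelled, 0 called). Serping1, the C1 inhibitor, rose by 1.25, Cfi, which cuts C3b and C4b, by 1.18, C4b by 0.96 and the receptor C3ar1 by 0.67. Of 30 genes of adhesion and matrix 11 rose (36.7%) and 1 fell (3.33%), with a median of 0.12 (0.05 as labelled, 0 called). Vcam1, an anchor for leukocytes, rose by 1.33, and Adamts1, a matrix protease, by 1.22. As labelled, Irf9, Stat2, Oasl2, B2m, Serping1, Cfi, C4b, C3ar1, Vcam1 and Adamts1 had 0.98, 0.66, 1.16, 0.64, 0.80, 0.70, 0.73, 0.45, 0.78 and 0.85, and none was called.

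Some markers of microglia and macrophages rose with these genes, while most were not called. Of 22 measured markers 6 rose (27.3%) and 1 fell (4.55%) after the exchange, against 7.1% and 6.25% of all genes. Their median was 0.10 (0.05 as labelled, 0 called). Their mean log2 level was 6.48 to 6.58 in KO dark, 6.66 and 6.68 in KO light 1 and 2, 6.53 in the array labelled KO light 3 and 6.73 in that labelled WT dark 4. In WT it was 6.48 to 6.55 in WT dark 1 to 3 and 6.48 to 6.56 in WT light. Genes of phagocytic cells rose, with Cd68 at 0.88 and Lyz2 at 0.69, whereas P2ry12, a receptor of resting microglia, fell by 0.26 on the log2 scale and Aif1 and Tmem119 had -0.11 and -0.04 without a call. The call of P2ry12 was lost without KO light 1, without the array labelled WT dark 4, and without KO dark 2 or 3, with adjusted p up to 0.131. Of 10 neutrophil markers 0 were called higher and 1, Camp, was called lower, a call lost without KO dark 1, KO dark 3 or the array labelled WT dark 4. S100a8 and S100a9 had 0.01 and -0.02 and were not called. As labelled, Cd68, Lyz2, P2ry12, Aif1, Tmem119, Camp, S100a8 and S100a9 had 0.49, 0.46, -0.08, -0.05, -0.03, -0.15, -0.01 and 0.07, and none was called. The part of microglial cell number in the inflammatory rises was not tested.

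**Figure D3:**
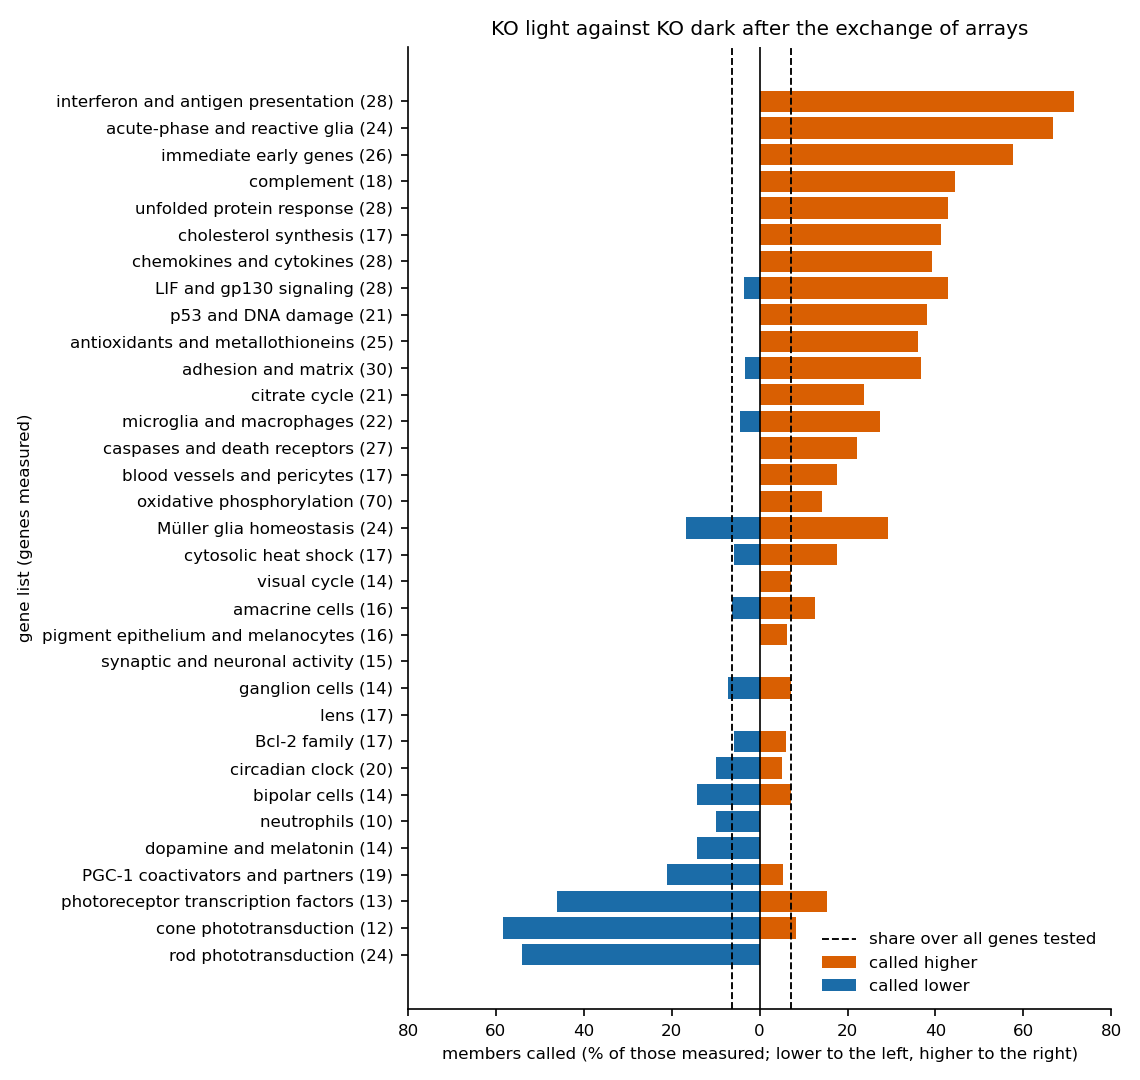
Share of the measured genes of each list called lower (bars to the left) and higher (bars to the right) in KO light against KO dark after the exchange, as a percentage of members (horizontal axis), for lists with at least 10 genes measured. Dashed lines mark the shares over all genes tested, 6.25% lower and 7.1% higher, and the interferon list on the right and the cone (58.3%) and rod (54.2%) lists on the left lie farthest beyond them.

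Genes of cell stress and cell death rose in part. Of 21 genes of the p53 and DNA damage response 8 rose (38.1%, against 7.1% of all genes) and 0 fell after the exchange. Their median was 0.16 (0.10 as labelled, 0 called). Gadd45b, a stress sensor that also acts on DNA demethylation, stood at 7.09, 7.31 and 7.01 in KO dark, 9.98 and 9.26 in KO light 1 and 2, 7.34 in the array labelled KO light 3 and 10.36 in that labelled WT dark 4. It rose 6.64-fold (log2 difference 2.73, SE 0.23, adjusted p = 1.15e-05), against a log2 difference of 1.73 as labelled (adjusted p = 0.177). Phlda3, an inhibitor of AKT, rose by 1.11, whereas Mdm2, a direct p53 target, had 0.01 and was not called. Of 27 caspases and death receptors 6 rose (22.2%) and 0 fell, with a median of 0.05 (0.05 as labelled, 0 called). Casp8, the initiator caspase of death receptors, rose by 0.96 and the TNF receptor gene Tnfrsf1a by 0.90, Fas by 0.51 and Apaf1, the core of the apoptosome, by 0.29. Of 17 genes of the Bcl-2 family 1 rose and 1 fell, 5.88% each way and thus near the shares over all genes. They were Mcl1 (0.56) and Bcl2 (-0.43), both inhibitors of apoptosis. The median of that family was 0.04 after the exchange, -0.01 with quantile normalization and 0.02 as labelled. As labelled, Phlda3, Mdm2, Casp8, Tnfrsf1a, Fas, Apaf1, Mcl1 and Bcl2 had 0.62, 0.0015, 0.63, 0.60, 0.28, 0.13, 0.28 and -0.28, and none was called.

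Chaperones and oxidant defences followed a similar course. Of 28 genes of the unfolded protein response 12 rose (42.9%, against 7.1% of all genes) and 0 fell after the exchange. Their median was 0.27 (0.16 as labelled, with Asns called). Hspa5, the main chaperone of the endoplasmic reticulum, stood at 10.75, 10.70 and 10.75 in KO dark, 11.34 and 11.10 in KO light 1 and 2, 10.69 in the array labelled KO light 3 and 11.41 in that labelled WT dark 4, a rise of 0.55 after the exchange (SE 0.07, adjusted p = 0.000179) and a difference of 0.31 as labelled (adjusted p = 0.28). Sdf2l1 and the disulfide isomerase Pdia6 rose by 0.69 and 0.63, and Ddit3, the CHOP factor linked to death under such stress, had 0.34 (adjusted p = 0.0556). Of 25 antioxidants and metallothioneins 9 rose (36.0%) and 0 fell, with a median of 0.22 (0.12 as labelled, 0 called). The metal-binding Mt1 and Mt2 rose by 1.04 and 0.92, the heme oxygenase Hmox1 by 0.88, and Slc7a11, which imports cystine for glutathione, by 0.61. Nqo1, a common target of NRF2, had 0.04 and was not called. Of 17 cytosolic heat shock genes 3 rose (17.6%) and 1 fell (5.88%), led by the co-chaperone Dnajb1 at 0.62. Their median was 0.11 (0.08 as labelled, 0 called). As labelled, Sdf2l1, Pdia6, Ddit3, Mt1, Mt2, Hmox1, Slc7a11, Nqo1 and Dnajb1 had 0.40, 0.44, 0.13, 0.54, 0.46, 0.45, 0.37, 0.08 and 0.29, and none was called.

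Phototransduction carries the light signal through transducin to phosphodiesterase and closes the cation channels of the outer segment. Genes of this cascade fell after the exchange. Of 24 rod genes measured 13 fell and 0 rose (54.2%, against 6.25% of all genes), with a median log2 difference of -0.24. As labelled 0 of 24 were called and the median was -0.15. Averaged over the 24 genes, the log2 level was 11.98 over KO dark, 11.71 and 11.84 in KO light 1 and 2, 11.97 in the array labelled KO light 3 and 11.66 in that labelled WT dark 4. Cngb1, the beta subunit of the rod channel, stood at 9.72, 9.76 and 9.76 in KO dark, 9.22 and 9.34 in KO light 1 and 2, 9.91 in the array labelled KO light 3 and 9.07 in that labelled WT dark 4. It fell by 0.54 on the log2 scale after the exchange (SE 0.06, adjusted p = 5.18e-05), and its difference was -0.26 as labelled (adjusted p = 0.397).

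Other falls lay at several steps of the cascade. The channel's alpha subunit Cnga1 fell by 0.40 on the log2 scale, the exchanger Slc24a1 by 0.33 and the phosphodiesterase subunit Pde6b by 0.31. Guca1a, which activates guanylate cyclase when calcium drops, fell by 0.50, recoverin, encoded by Rcvrn, by 0.40 and phosducin, encoded by Pdc, by 0.41. Some defining members were not called, with Gnat1 at -0.09, Sag at 0.03, Pde6a at -0.13 and the photoreceptor kinase Grk1 at -0.03. As labelled, Cnga1, Slc24a1, Pde6b, Guca1a, Rcvrn, Pdc, Gnat1, Sag, Pde6a and Grk1 had -0.28, -0.18, -0.19, -0.38, -0.19, -0.25, -0.05, 0.01, -0.07 and 0.04, and none was called. Of 12 cone genes 7 fell (58.3%) and 1 rose (8.33%), with a median of -0.28 (-0.15 as labelled, 0 called). The cone channel subunit Cngb3 fell by 0.59 on the log2 scale, cone transducin Gnat2 by 0.53 and the short-wave opsin Opn1sw by 0.45. As labelled, Cngb3, Gnat2 and Opn1sw had -0.40, -0.28 and -0.23, and none was called. Gnb3, a transducin beta subunit that cones share with ON bipolar cells, rose by 0.68 (SE 0.06, adjusted p = 1.42e-05). Gnb3 stood at 11.95, 12.03 and 11.98 in KO dark and 12.71, 12.55 and 12.74 after the exchange, with 12.05 in the array labelled KO light 3 and a difference of 0.45 as labelled.

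**Figure D4:**
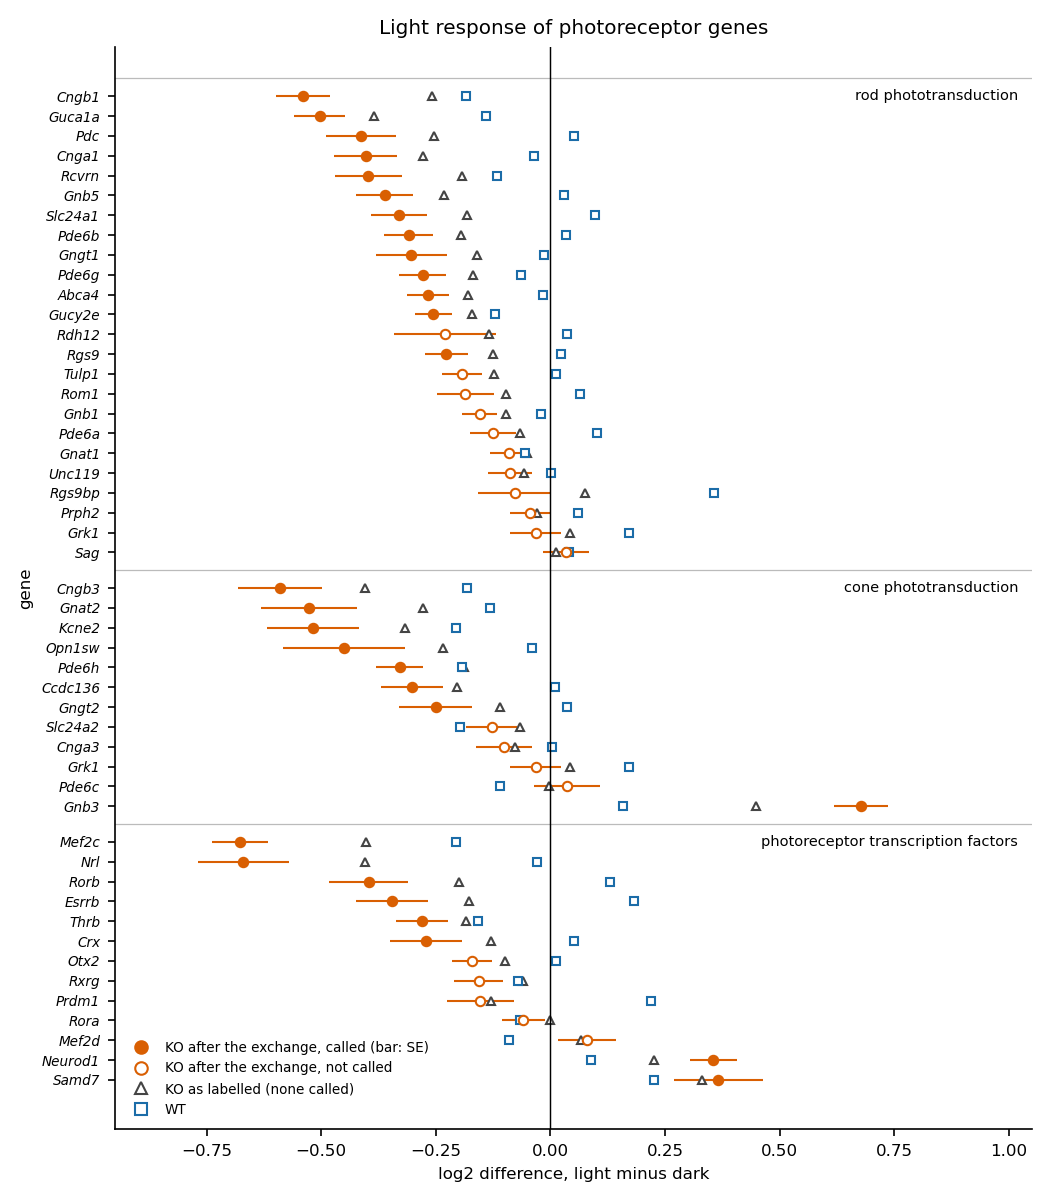
Log2 difference between light and dark (horizontal axis) of the measured rod, cone and photoreceptor transcription factor genes, where circles give KO after the exchange with the SE of the fit, filled where called, triangles KO as labelled and squares WT. For most rod genes the circles lie to the left of both other symbols, as for Pdc at -0.41 against 0.05 in WT, and Gnb3, Neurod1 and Samd7 lie to the right of 0.

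Some of the transcription factors that hold photoreceptor identity fell too. Of 13 measured 6 fell (46.2%) and 2 rose (15.4%) after the exchange, against 6.25% and 7.1% of all genes. Their median was -0.17 (-0.13 as labelled, 0 called). Nrl, the factor that makes rods, stood at 9.88, 9.86 and 9.86 in KO dark, 9.09 and 9.51 in KO light 1 and 2, 9.79 in the array labelled KO light 3 and 8.997 in that labelled WT dark 4. Nrl fell by 0.67 on the log2 scale after the exchange (SE 0.10, adjusted p = 0.000494), and had -0.40 as labelled (adjusted p = 0.206). Mef2c fell by 0.68, Rorb by 0.40, Esrrb by 0.34 and Crx, the homeobox factor of rods and cones, by 0.27. Neurod1 and Samd7 rose by 0.36 and 0.37. As labelled, Mef2c, Rorb, Esrrb, Crx, Neurod1 and Samd7 had -0.40, -0.20, -0.18, -0.13, 0.23 and 0.33, and none was called. Within KO light the fall was uneven, since KO light 2 stood closer to KO dark than KO light 1 did for Nrl, Crx and Opn1sw. Opn1sw had 12.28 in KO light 2, inside its KO dark range of 12.27 to 12.37. The calls of Crx and Opn1sw were lost without KO light 1 or without the array labelled WT dark 4, and also without KO dark 1 or 2, with adjusted p up to 0.116 and 0.129. The call of Samd7 was lost without KO light 1 or KO dark 3.

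CRX binds the letters TAATCC, and of the 11 falling rod genes for which RefSeq gave a promoter, 7 held these letters within 250 bases before the start, on either strand. Of the 8 rod genes with a promoter that were not called 2 held them, and the share over the promoters of all genes tested was 6.95%. Over all genes that fell it was 8.96% and over all that rose 6.49%. Rod genes as a class are known targets of CRX. The 3 photoreceptor genes with the largest fall that hold the letters are shown as RefSeq gives them in build GRCm38.p6, along the gene's strand, with the letters or their reverse complement in capitals. Cngb1 (chr8:95306586-95306835) and Guca1a (chr17:47400607-47400856) are on the minus strand and Gnat2 (chr3:108092816-108093065) is on the plus strand.
Cngb1: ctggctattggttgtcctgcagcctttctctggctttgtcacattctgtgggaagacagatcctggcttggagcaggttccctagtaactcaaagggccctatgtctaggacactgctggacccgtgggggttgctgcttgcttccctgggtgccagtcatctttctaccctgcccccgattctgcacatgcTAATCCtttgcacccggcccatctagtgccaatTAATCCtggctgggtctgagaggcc
Guca1a: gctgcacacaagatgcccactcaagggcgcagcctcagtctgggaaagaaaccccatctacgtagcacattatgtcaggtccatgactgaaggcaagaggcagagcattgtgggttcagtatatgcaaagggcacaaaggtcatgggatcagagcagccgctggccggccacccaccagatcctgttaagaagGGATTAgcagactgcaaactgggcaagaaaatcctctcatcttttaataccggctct
Gnat2: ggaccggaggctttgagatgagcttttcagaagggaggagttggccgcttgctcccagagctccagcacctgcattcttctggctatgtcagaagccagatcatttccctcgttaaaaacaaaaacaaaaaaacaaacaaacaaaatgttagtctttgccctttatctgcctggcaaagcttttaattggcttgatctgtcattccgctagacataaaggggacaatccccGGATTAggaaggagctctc
Cngb1 holds the letters at 58 and at 25 bases before its start, Guca1a at 57 and Gnat2 at 19. These are matches of letters, and CRX binding was not measured here.

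The miR-183 cluster is a group of microRNAs made in photoreceptors and other sensory cells from 1 primary transcript, and its level is known to follow light. The array has a probe set for each hairpin, which reads the precursor or its host transcript and not the mature microRNA. Their mature 5p strands are shown because they share much of a seed (bases 2 to 8, in capitals), and all lie on the minus strand of chromosome 6 in RefSeq's GRCm38.p6, at chr6:30169711-30169732 for miR-183-5p, chr6:30169506-30169528 for miR-96-5p and chr6:30165962-30165986 for miR-182-5p.
miR-183-5p: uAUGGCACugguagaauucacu
miR-96-5p: uUUGGCACuagcacauuuuugcu
miR-182-5p: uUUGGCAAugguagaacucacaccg
Mir183 stood at 6.81, 6.92 and 6.67 in KO dark, 5.45 and 5.78 in KO light 1 and 2, 6.63 in the array labelled KO light 3 and 5.43 in that labelled WT dark 4. It fell by 1.25 on the log2 scale after the exchange (SE 0.12, adjusted p = 2.06e-05), and its difference was -0.85 as labelled (adjusted p = 0.165). Mir182 and Mir96 fell by 0.96 and 0.74 after the exchange, and had -0.58 and -0.41 as labelled. In WT the differences were -0.52 for Mir183 (adjusted p = 0.0181), -0.37 for Mir182 and -0.34 for Mir96. The difference between genotypes was -0.72 for Mir183 (adjusted p = 0.0367), a call lost in 11 settings, among them without KO light 1, without any single WT dark array and with quantile normalization (adjusted p up to 0.145), and -0.59 and -0.40 for Mir182 and Mir96, where it was not called.

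Some mitochondrial genes rose mildly in both genotypes. Of 70 genes of oxidative phosphorylation 10 rose and 0 fell in KO after the exchange, with a median log2 difference of 0.11 (0.11 as labelled, 0 called). That is 14.3% called higher, against 7.1% of all genes, and quantile normalization gave 8 rises and 1 fall. In WT, with the same arrays, 11 rose and 0 fell in the fit after the exchange and 2 rose and 0 fell in that as labelled, with a median of 0.10 in both. In either fit the difference between genotypes was called for 0 of 70 genes, which does not show that the responses were equal. The mean log2 level was 9.54 to 9.55 in KO dark, 9.65 and 9.70 in KO light 1 and 2, 9.60 in the array labelled KO light 3, 9.68 in that labelled WT dark 4, 9.62 to 9.67 in WT dark 1 to 3 and 9.74 to 9.79 in WT light. KO light 1 and 2 thus stood within or just above the range of WT dark, and WT light above both. Ndufb6, a subunit of complex I, stood at 9.56 in each KO dark array and rose by 0.56 after the exchange (SE 0.05, adjusted p = 1.42e-05), against 0.42 as labelled. Cox5b, a subunit of complex IV, stood at 10.98, 10.97 and 11.03 in KO dark and 11.29, 11.37 and 11.27 after the exchange, a rise of 0.32 (adjusted p = 0.000226). As labelled, with 11.20 in KO light 3, Cox5b had 0.29 (adjusted p = 0.0645). Of 21 genes of the citrate cycle 5 rose (23.8%) and 0 fell, with a median of 0.15 (0.13 as labelled, with Idh3a called). The count was 3 to 5 with 1 array left out and 3 with quantile normalization, and the call of Idh2 was lost in 4 settings.

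The PGC-1 family was divided. Ppargc1a had -0.21 under both assignments (adjusted p = 0.0626 after the exchange) and was not called. Ppargc1b, which encodes the related PGC-1β, stood at 9.15, 9.03 and 9.13 in KO dark, 8.56 and 8.80 in KO light 1 and 2, 9.17 in the array labelled KO light 3 and 8.50 in that labelled WT dark 4. It fell by 0.48 on the log2 scale after the exchange (SE 0.07, adjusted p = 0.000491), and had -0.26 as labelled (adjusted p = 0.336). Pprc1, the third member, rose by 0.41. Of 19 coactivators and partner receptors 4 fell (21.1%) and 1 rose (5.26%), against 6.25% and 7.1% of all genes. Among the falls were the receptors Esrrb, Esrrg and Ppara. The call of Esrrg was lost without KO light 1, without the array labelled WT dark 4 and without KO dark 1 or 3, and that of Ppara without KO dark 3. The median of that list was 0.04 after the exchange, -0.01 with quantile normalization and -0.03 as labelled. As labelled, Pprc1, Esrrb, Esrrg and Ppara had 0.13, -0.18, -0.15 and -0.16, and none was called. Of 17 genes of cholesterol synthesis 7 rose (41.2%) and 10 were not called after the exchange, and 4 rose with quantile normalization. Their median was 0.23 (0.19 as labelled, 0 called). They were led by Pmvk, phosphomevalonate kinase, at 0.85 (0.62 as labelled).

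Eps8l1, which binds actin regulators, stood at 7.50, 7.89 and 7.59 in KO dark and 6.07, 6.24 and 5.97 after the exchange, with 7.57 in the array labelled KO light 3. It fell to 0.338 of its dark level (log2 difference -1.57, SE 0.17, adjusted p = 6.29e-05), and it fell in WT too (-1.47), with a difference between genotypes of -0.09 that was not called. Glb1l3, a galactosidase-like protein, fell by 1.53, but unevenly, from 7.68, 7.47 and 7.59 in KO dark to 5.45 and 7.10 in KO light 1 and 2 and 5.60 in the array labelled WT dark 4. Glb1l2, Plpp2, Rabgef1 and Folh1 fell by 0.95, 0.99, 0.96 and 0.94 on the log2 scale. Pitpnm3, which moves phosphatidylinositol in photoreceptors and neurons, fell by 0.82, Hdc, which makes histamine, by 0.82, and Pcsk6, a proprotein convertase, by 0.81. As labelled, Eps8l1, Glb1l3, Glb1l2, Plpp2, Rabgef1, Folh1, Pitpnm3, Hdc and Pcsk6 had -1.03, -0.63, -0.49, -0.60, -0.57, -0.71, -0.43, -0.30 and -0.75, and none was called.

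Genes with which Müller glia serve neurons at rest were divided. Of 24 measured 7 rose (29.2%) and 4 fell (16.7%) after the exchange, against 7.1% and 6.25% of all genes. Their median was 0.08 (0.06 as labelled, 0 called). Glul, glutamine synthetase, which clears glutamate, stood at 12.47, 12.43 and 12.39 in KO dark, 11.71 and 12.05 in KO light 1 and 2, 12.33 in the array labelled KO light 3 and 11.59 in that labelled WT dark 4. It fell by 0.65 on the log2 scale after the exchange (SE 0.10, adjusted p = 0.000527), and had -0.41 as labelled (adjusted p = 0.19). Etnppl, which breaks down phosphoethanolamine, fell by 1.31 and Slc15a2, a peptide transporter, by 1.16. The call of Slc15a2 was lost without KO light 1, without KO dark 3 and without the array labelled WT dark 4, with adjusted p up to 0.0629. In contrast Slc14a1, a urea transporter, rose by 1.29 and Slc1a3, the glutamate transporter GLAST, by 0.34, while Rlbp1, Kcnj10 and Aqp4 had -0.20, 0.21 and 0.17 and were not called. As labelled, Etnppl, Slc15a2, Slc14a1, Slc1a3, Rlbp1, Kcnj10 and Aqp4 had -0.95, -0.76, 0.88, 0.23, -0.12, 0.08 and 0.11, and none was called.

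In the lists for other cells of the retina the shares called ran from below to above those over all genes (7.1% higher and 6.25% lower after the exchange). Of 15 synaptic genes 0 were called in either direction. Of 14 bipolar cell genes 1 rose and 2 fell (7.14% and 14.3%), and 2 to 5 fell with 1 array left out, with Prkca, the protein kinase C of rod bipolar cells, at -0.36 and Grm6, the glutamate receptor of ON bipolar cells, at -0.28. Of 16 amacrine genes 2 rose and 1 fell (12.5% and 6.25%), with the neuropeptides Npy at 0.44 and Tac1 at 0.54. Of 9 horizontal cell genes 2 fell (22.2%), and 0 to 3 with 1 array left out. Of 14 ganglion cell genes 1 rose and 1 fell (7.14% each), and the fall was lost in some of the fits with 1 array left out. Of 14 genes of dopamine and melatonin 2 fell (14.3%), and 1 to 3 with 1 array left out, led by the dopamine receptor Drd2 at -0.48. Of 20 clock genes 1 rose and 2 fell, and 1 to 3 fell with 1 array left out, with the light-responsive repressor Bhlhe40 at 0.62. Of 17 vessel and pericyte genes 3 rose (17.6%), led by Kdr, the receptor for VEGF, at 0.80, and of 6 astrocyte genes 2 rose (33.3%), Gfap and Aldh1l1 (1.35). Of 14 visual cycle genes 1 rose (7.14%), and 0 to 1 with 1 array left out. As labelled, Prkca, Grm6, Npy, Tac1, Drd2, Bhlhe40, Kdr and Aldh1l1 had -0.26, -0.17, 0.27, 0.14, -0.29, 0.34, 0.58 and 0.79, and none was called. The call of Tac1 was lost with the KO arrays alone. As labelled 0 genes of these lists were called.

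Levels of genes that mark tissue next to the retina varied among arrays, and the amount of such tissue was not measured. The mean log2 level of 17 lens genes ran from 6.58 to 8.13 over the 13 arrays, and Cryaa, a lens crystallin, stood at 10.70, 10.18 and 8.41 in KO dark and 11.06, 9.02 and 8.08 in KO light as labelled. Of the lens genes 0 were called in KO. The mean of 16 genes of pigment epithelium and melanocytes ran from 7.04 to 7.49 in KO dark and was 7.11 and 7.74 in KO light 1 and 2, 7.42 in the array labelled KO light 3 and 7.50 in that labelled WT dark 4. In WT this mean was 7.21 to 7.38 in WT dark 1 to 3 and 6.60 to 7.08 in WT light. Of these genes Gpnmb, a glycoprotein of melanosomes and also of phagocytes, was the 1 that rose (1.66 after the exchange and 1.29 as labelled), and Rpe65 and Tyrp1 had -0.77 and 0.23 and were not called. As labelled, Rpe65 and Tyrp1 had -0.88 and 0.34 and were not called. The only erythrocyte gene measured, Slc4a1, had -0.07 (-0.06 as labelled) and was not called.

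The KO response was set against that of WT by the difference between them, which shares the KO and WT dark arrays with the comparisons above. As labelled the difference passed limma's test for 7 genes with a higher response in KO and 5 with a lower one (0.0366% and 0.0262%). After the exchange it passed for 404 and 160 (2.11% and 0.838%). WT light against WT dark 1 to 3 gave 29 rises and 43 falls in the fit as labelled (0.152% and 0.225%) and 409 and 435 after the exchange (2.14% and 2.28%), with the same WT arrays and another pooled spread. Of the 1357 genes that rose in KO after the exchange 1219 had the same sign in WT, and the median log2 difference was 0.39 in KO and 0.16 in WT. These genes were chosen by their KO call, which by itself favors a larger KO median, and nothing about the size of the responses is drawn from it. Both genotypes called 210 of them, 15.5% of the KO rises and 51.3% of the WT rises. Of the 1194 that fell in KO 985 had the same sign in WT, with medians of -0.28 and -0.11, and 182 were called in both, 15.2% of the KO falls and 41.8% of the WT falls. The difference between genotypes was itself called for 340 of the KO rises and 104 of the KO falls.

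**Figure D5:**
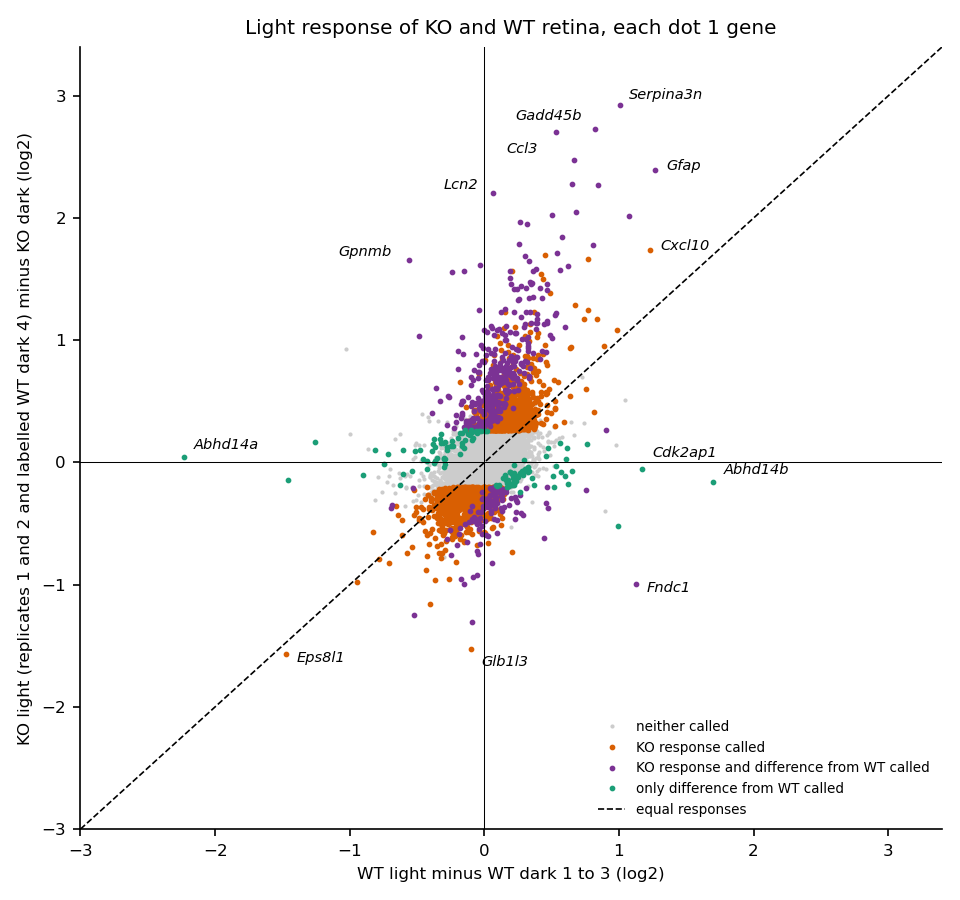
Log2 difference between light and dark of each gene in WT (horizontal axis) and in KO after the exchange (vertical axis), colored by which test called it, with a dashed line of equal responses. Most KO rises lie above the line, as Serpina3n at 2.92 in KO and 1.01 in WT, while Eps8l1 lies close to it, and Abhd14a, Abhd14b and Cdk2ap1 lie near 0 in KO. KO rises were chosen by their KO call, which by itself favors a place above the line.

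Among the gene groups, a larger KO rise was called for 11 of 24 acute-phase and reactive glia genes, 7 of 28 in the LIF pathway, 7 of 28 interferon genes, 6 of 26 immediate early genes and 4 of 18 complement genes. A lower KO response was called for 6 of 24 rod genes and 4 of 13 photoreceptor transcription factors. As labelled 0 members of these 7 lists were called. Over all genes tested the shares after the exchange were 2.11% with a higher KO response and 0.838% with a lower one. Of 12 cone genes the difference was called higher for 1 and lower for 0, and of 17 Bcl-2 family genes for 0 either way. Lcn2 stood at 8.27, 8.65 and 8.52 in WT dark 1 to 3 and 8.30, 8.39 and 8.94 in WT light, a WT difference of 0.07, so its KO response was larger by 2.13 (SE of the KO response 0.20, adjusted p of the difference 0.00308). Gfap rose in WT too (1.27, adjusted p = 0.00242), from 7.09, 7.31 and 7.07 to 7.91, 8.39 and 8.98, and the KO response was larger by 1.12 (adjusted p = 0.0401). This call on Gfap was lost in 11 settings, among them without any single KO dark or WT dark array and with the replicate block, with adjusted p up to 0.161. Stat3 rose by 0.81 in WT, and its KO response was larger by 0.97 (adjusted p = 0.02), a call lost in 7 settings (adjusted p up to 0.118). Ccl3 responded more in KO by 2.17, Serpina3n and Gadd45b by 1.91 each and Gpnmb by 2.21. Of these calls that on Serpina3n was lost in 10 settings (adjusted p up to 0.163), those on Ccl3 and Gadd45b only without moderated variances, and that on Gpnmb in 0. For Gpnmb the 2.21 is more than its KO rise of 1.66, so its WT difference was below 0. The 16 genes of pigment epithelium and melanocytes, its list, had a median of -0.30 in WT. For 14 of them the KO response minus the WT response was above 0. Whether the amount of pigment tissue had a part in the Gpnmb difference was not tested. Cxcl10, in contrast, rose by 1.23 in WT and 1.74 in KO, and the difference of 0.50 was not called. For Pdc, Pde6b, Gnb5 and Slc24a1 the WT differences were 0.05, 0.03, 0.03 and 0.10, and the KO response minus the WT response was -0.46, -0.34, -0.39 and -0.43. Leaving out 1 array ended most of these calls. That on Cngb1 was lost in 14 settings, those on Pdc and Pde6b in 12, on Gnb5 and Nrl in 11, on Rorb in 12, on Esrrb in 9, on Slc24a1 in 8 and on Guca1a in 7, with adjusted p up to 0.138, while that on Mef2c was lost only without moderated variances.

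At some genes the difference between genotypes was called while the KO response was not. Of the 404 genes with a higher response in KO 61 were not called in KO, and of the 160 with a lower response 55 were not. Abhd14a had a difference of 2.28 after the exchange, but it stood at 8.07, 7.89 and 8.24 in KO dark and 8.14, 8.21 and 7.98 in KO light. In WT dark 1 to 3 it stood at 10.46, 10.34 and 10.43 and in WT light at 8.19, 8.20 and 8.14, and the array labelled KO light 3 had 10.49. Abhd14b and Cdk2ap1 showed the inverse, with 8.43, 8.42 and 8.33 and with 10.43, 10.46 and 10.35 in WT dark 1 to 3 against 8.45 and 10.40 in the array labelled KO light 3. All other arrays lay between 9.75 and 10.18 for Abhd14b and between 11.53 and 11.68 for Cdk2ap1. At these 3 genes the array labelled KO light 3 lay with WT dark 1 to 3, and WT light lay with KO dark. Fndc1, a fibronectin-domain protein, had the largest lower response in KO both as labelled (-2.03) and after the exchange (-2.12). It rose in WT by 1.13, from 8.05, 8.07 and 7.69 to 9.30, 8.68 and 9.23, and fell in KO by 0.99 after the exchange (-0.90 as labelled, not called), from 8.86, 8.72 and 8.94 to 7.37 and 8.21 in KO light 1 and 2 and 7.95 in the array labelled WT dark 4.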

How the data were processed

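RNA of 13 mouse retina samples, 1 array per mouse, was measured on Affymetrix Mouse Gene 1.0 ST arrays. The deposited table holds linear intensities that the authors had normalized (Partek, per the submitters' processing notes), and the sources used here do not give the background correction or the normalization method. The files give no counts, so the number of arrays limits the precision. Median intensity per array was 141.1 to 145.65.

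Intensities were log2 transformed. Of 34760 probe sets 21640 carried 1 gene symbol, 1321 several and 11799 none. Symbols were matched to RefSeq (GRCm38.p6), probe sets of a symbol were averaged, and 748 X or Y genes and 85 of unknown chromosome were left out, which left 19104 autosomal genes, 916 of them with several probe sets. A fit of 4 groups (KO dark, KO light, WT dark, WT light) with limma 3.58.1 in R 4.3.3 (lmFit, eBayes) gave the KO response, the WT response and their difference. P-values were adjusted by Benjamini-Hochberg over all genes. Calls needed an adjusted p under 0.05 with a linear ratio from 1.2 upward or from 0.87 downward, and for the difference between genotypes the adjusted p alone. Every adjusted p in the text comes from limma. As labelled, WT dark 4 was left out. With the exchange it was placed in KO light and KO light 3 was left out. The script was tested on simulated data.

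The members, lists and tests were chosen with earlier results of these data known. Named were Ppargc1a and Ppargc1b, the 12 non-overlapping called genes with the largest rise and fall, up to 8 called and 3 uncalled members per list, the 6 largest differences between genotypes each way, and the miR-183 cluster. Some further list members were named after their values were seen. Genes can stand in more than 1 list. Alternatives were the KO arrays alone, all 13 arrays, each array left out, replicate number as a block, quantile normalization, a filter on dim probe sets, no moderation or a trend, array weights, the brightest probe set per gene, and X and Y genes kept.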

Additional observations from a re-analysis of the deposited data

Results flagged for a closer look

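The KO light response differed from the WT response, by limma's test of the difference, at genes named here with the KO response minus the WT response on the log2 scale. As labelled the KO response was higher for Pcolce (1.30), Odc1 (0.80), Cdkal1 (0.76), Shisa4 (0.68), Synm (0.65) and Anxa3 (0.62), and lower for Fndc1 (-2.03), Uaca (-1.12), Sh3yl1 (-1.05), Nt5e (-0.76) and Sowahb (-0.70). After the exchange it was higher for Abhd14a (2.28), Gpnmb (2.21), Ccl3 (2.17), Lcn2 (2.13), Serpina3n (1.91) and Gadd45b (1.91), and lower for Fndc1 (-2.12), Abhd14b (-1.86), Cmtm5 (-1.51), Cdk2ap1 (-1.23), Etnppl (-1.22) and Sh3yl1 (-1.06). The call on Etnppl (limma adjusted p = 0.0494) was lost in 13 settings, and those on Anxa3 and Fndc1 as labelled in 10 each. After the exchange those on Abhd14a, Abhd14b and Cdk2ap1 were lost in 0.

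By a test for a single distant sample, the array labelled WT dark 4 lay far from the other 3 WT dark arrays in 4 measures. The array had already been singled out from the same intensities for such a distance. The 4 measures therefore describe this array, and no chance rate applies to them. Its median intensity was 141.1, against 144.25 to 144.55 in the others. Its mean correlation with them was 0.9899. Its mean log2 level of acute-phase and reactive glia genes was 8.71 and that of rod genes 11.66. These measures come from 1 array and are not independent of each other.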

How the results depend on the processing

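No called result changed direction under the alternatives run, while small list medians near 0 changed sign with quantile normalization (as labelled amacrine cells, and after the exchange the Bcl-2 family, lens, neutrophils, PGC-1 partners and synaptic genes). As labelled, the 11 calls between KO dark and KO light became 0 with the KO arrays alone, 0 with all 13 arrays, 3 without moderated variances, 20 with a variance trend, 1308 with array weights (KO light 3 had a weight of 0.212) and 20 with X and Y genes kept. Leaving out 1 array at a time gave 0 to 1899 calls. The 12 calls of the difference between genotypes became 7 with all 13 arrays, 1 without moderated variances and 43 with array weights, and 1 to 255 with 1 array left out. After the exchange the 2551 calls stayed within 1.5 times, at 2090 to 2723 over these settings and 1899 to 2878 with 1 array left out. The 564 calls of the difference became 74 without moderated variances and 883 with array weights, and 238 to 1192 with 1 array left out. The cause of these moves was not tested.

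Replicate numbers did not pair the samples. Deviations of same-numbered arrays correlated at 0.005, -0.022 and 0.101 as labelled and -0.098, -0.015 and 0.022 after the exchange. With the replicate number as a block there were 0 KO calls and 4 calls of the difference as labelled, and 2511 and 482 after the exchange.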
